A study of Mus musculus with 3 samples.

Results

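The histone genes on the array were taken as every probe whose gene name in the array files begins with Hist1h, Hist2h, Hist3h, Hist4h, H2af or H3f, or is H1f0, H1fx or H1fnt. This gave 59 of 30028 gene names, measured by 74 of 39429 probes. The Hist names are the clustered histones, with 52 probes for 45 names, and the others are the variant histones, with 22 probes for 14 names. Of the 74 probes, 64 were tested, because Cy3, Cy5 or both stood well above background on every array; for 63 of these both channels did so. The series compared hippocampal total RNA of male mice killed by cervical dislocation at postnatal day 120. The older-mother group (advanced maternal age, AMA) were sons of females aged 15 to 18 months, and the young-mother group (young maternal age, YMA, the control) were sons of females aged 3 months. Fathers in both groups were virgin males aged 3 months. Every array, 3 in all, held an older-mother pool in Cy3 beside a young-mother pool in Cy5, and each pool combined equal RNA of 3 animals.

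Histones are the proteins around which DNA is wound. H2A, H2B, H3 and H4 form the core of the nucleosome, and H1 binds the linker DNA between nucleosomes. The clustered genes lie together in gene clusters and are known as the replication-dependent histones: in dividing cells they are transcribed in S phase, and most of their mRNAs end in a stem-loop bound by the protein Slbp instead of a poly(A) tail. Variant histones such as H3.3, H2A.Z and macroH2A are encoded by single genes whose mRNAs carry poly(A) tails, and they are placed in chromatin outside replication as well, which makes them a main supply of new histone in cells that no longer divide, such as neurons. Labelling kits of the kind used here start copying from poly(A) tails, which the stem-loop mRNAs lack.

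Values are log2 ratios of older over young mothers from the authors' deposited table, a log2 of 1 being a doubling, and the error is the SD over the 3 arrays. A probe is called higher or lower where limma's two-sided test, adjusted over all 27629 tested probes, gave p under 0.05. Dye and group cannot be told apart, since Cy3 held the older-mother pool on every array, and the arrays share 1 slide and 1 scan. The p-values measure only the spread between these pools, and the labels do not say whether pools share litters. Median net signals over all probes were 57 to 62 in Cy3 and 150.5 to 162.5 in Cy5, and no spot was saturated. All 13 hippocampal neuron markers examined were above background, with 4 called higher, 2 called lower and a median log2 ratio of 0.02. The called ones ran from -0.33 to 0.26, so the median near 0 does not mean that each marker was level. Of all probes tested, 16.6% were called in either direction. In tissue RNA, fewer cells of a type and less RNA per cell cannot be told apart.

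Several probe sequences carry the comparisons that follow. The first is a stretch shared by H4 probes that were all lower in the older-mother pools. Capitals mark bases that differ from the Hist1h4k sequence, and all lie in the coordinates of mm9, the build named in the array files, on chromosome 13.
Hist1h4k, minus strand, chr13:21842291-21842330: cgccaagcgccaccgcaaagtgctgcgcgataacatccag
Hist1h4j, plus strand, chr13:21827009-21827048: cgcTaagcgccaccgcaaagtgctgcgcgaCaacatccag
Hist1h4d, plus strand, chr13:23673515-23673554: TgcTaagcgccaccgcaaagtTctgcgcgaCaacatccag
Hist1h4c, minus strand, chr13:23790235-23790274: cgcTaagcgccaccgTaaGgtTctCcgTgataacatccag
The second is a stretch shared by H2A probes of both large clusters, with capitals where a base differs from Hist1h2ak.
Hist1h2ak, minus strand, chr13:21845310-21845363: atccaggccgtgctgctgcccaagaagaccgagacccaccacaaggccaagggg
Hist1h2an, plus strand, chr13:21902669-21902722: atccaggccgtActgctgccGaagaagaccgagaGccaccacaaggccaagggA
Hist2h2aa2, minus strand, chr3:96043787-96043840: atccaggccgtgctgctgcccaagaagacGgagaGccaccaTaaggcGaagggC
The third is the histone stem-loop, in capitals, in 30 bases of probes for 3 families.
Hist2h2bb, plus strand, chr3:96074086-96074115: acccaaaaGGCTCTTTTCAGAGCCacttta
Hist1h3i, minus strand, chr13:21874784-21874813: ataacaaaaGGCTCTTTTCAGAGCCccctc
Hist1h4m, plus strand, chr13:21903990-21904019: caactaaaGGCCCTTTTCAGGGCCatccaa
The fourth is AATAAA, a motif known as a poly(A) signal, in capitals, in the second Hist2h2bb probe. That probe gave the largest rise among the tested histone probes.
Hist2h2bb, plus strand, chr3:96082777-96082806: gttgtcagtttgAATAAAgacagagaaact

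Outside H4, clustered histone probes were on balance higher in the older-mother pools, with calls in H2A, H2B and some H3 probes and none in H1. The variant histones were called about as often as all probes. Of 43 clustered probes tested, 16 were called higher, 8 were called lower and 19 were not called. Of 21 variant probes tested, 1 was called higher, 3 were called lower and 17 were not called. Over all probes tested, 6.96% were called higher and 9.65% lower, or 16.6% in either direction. The clustered shares were 37.2% higher and 18.6% lower, and the variant shares 4.76% higher and 14.3% lower. All 8 clustered probes called lower were H4 probes, and without H4 the clustered set had 14 of 30 called higher and 0 called lower by limma, 0 also at an unadjusted p under 0.05. The limma test gave an unadjusted p under 0.05 to 39 of the 64 histone probes and to 10237 of all 27629 probes.

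The median log2 ratio of the clustered probes was 0.13, 0.14 and 0.18 on arrays 1, 2 and 3, and that of the variant probes was -0.01, -0.04 and -0.03. The clustered median was therefore above the variant median on each of the 3 arrays, by 0.14, 0.19 and 0.21, and the median of all probes was -0.02 on each. The counts rest on all 3 arrays. Without array 1, 11 clustered probes were called higher and 8 lower. Without array 2 the counts were 6 and 0, and without array 3 they were 1 and 0. The dye correction matters as well: with each array centred on its median instead of corrected by loess, the median of all tested probes was -0.33, 12 of the 16 clustered probes called higher turned negative, and 13 of the 16 stayed above that median.

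**Figure D1:**
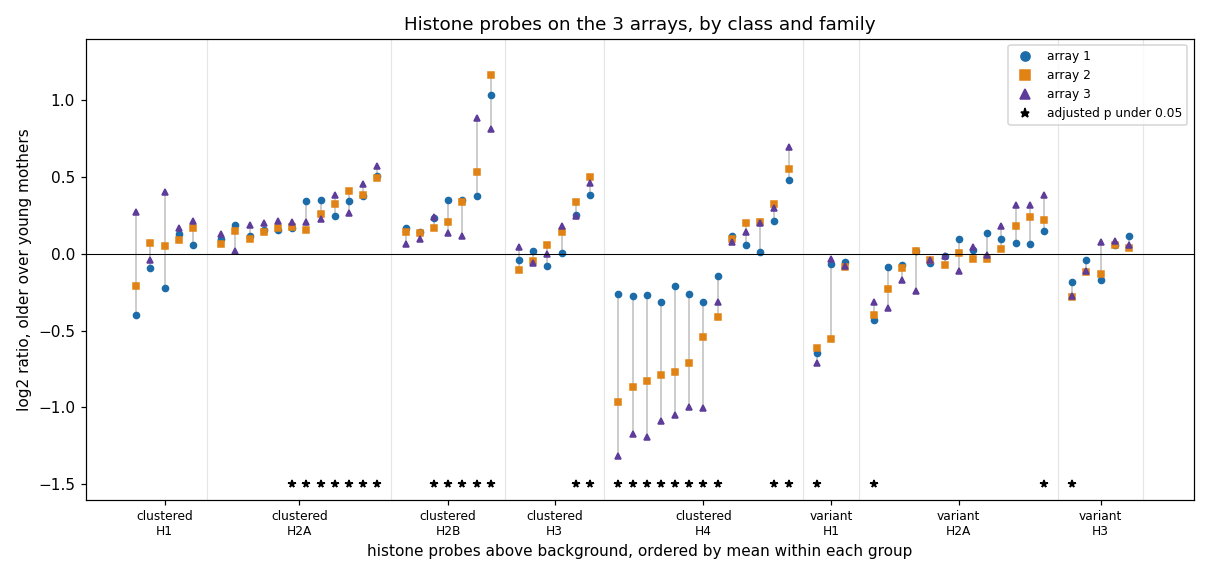
Log2 ratio of older over young mothers (vertical axis) for each of the 64 histone probes above background, grouped by class and family along the horizontal axis. Symbols are the 3 arrays, grey lines join the lowest and highest array, and stars mark limma adjusted p under 0.05. Clustered H2A and H2B probes lie above 0, and 8 of 13 H4 probes lie below 0 with a wide spread between arrays.

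H2A, a core histone whose tail end lies at the surface of the nucleosome, was called higher in part of its clustered probes and lower in none. All 12 tested H2A probes were above 0 on all 3 arrays, and 7 of them passed the test, with a median log2 ratio of 0.21. Hist1h2ao (H2ac23 in RefSeq) had log2 ratios of 0.51, 0.49 and 0.57 on arrays 1 to 3. Its mean of 0.52 ± 0.04 (SD, n = 3) corresponds to 1.44-fold, with a limma adjusted p of 0.0127. Net signals of that probe were 2833, 3359 and 3492 in the older-mother pools and 5520, 6375.5 and 6830.5 in the young-mother pools. Cy5 read brighter than Cy3 over the whole array, so the raw channels are not to be set against each other, and only the dye-corrected ratio compares the groups. The rise of this gene was nearly the same in all 3 pairs of pools.

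Hist1h2ag rose by a log2 ratio of 0.41 ± 0.04, with 0.38, 0.39 and 0.45 on the arrays. Hist1h2an, whose probe shares 34 genomic bases with that of Hist1h2ao, had 0.25, 0.33 and 0.38, with a mean of 0.32 ± 0.07. Hist3h2a on chromosome 11 (chr11:58768954-58769013) had 0.35, 0.41 and 0.27, with a mean of 0.34 ± 0.07. These 3 rises had limma adjusted p of 0.0156, 0.0216 and 0.0206. Smaller rises were called for Hist1h2ab, with a mean of 0.28, and for both probes of Hist1h2ak, with means of 0.18 and 0.24. The 5 uncalled H2A probes had means of 0.10 to 0.18 and limma adjusted p of 0.0530 to 0.182. They include the brightest H2A probes, Hist1h2af with 0.15, 0.17 and 0.21 and Hist1h2ah with 0.16, 0.14 and 0.20, with means of 0.18 and 0.17, just under the smallest called rise. Without array 1 both Hist1h2ak probes lost their call, at limma adjusted p of 0.0774 and 0.0871. Without array 2, 2 of the 7 H2A calls were kept, those of Hist1h2ag and Hist1h2ao, and without array 3 none was, the smallest limma adjusted p being 0.0522 for Hist1h2ao. Under median centring 7 of the 7 called H2A probes turned negative, and Hist1h2ak at chr13:21845304-21845363 and Hist1h2an then also lay below the median of all probes.

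H2A genes are near-copies of each other, and whether the probes tell them apart was not tested. Counting probes that overlap over at least 40 bases with at least 85% identical bases, 8 H2A probes formed 1 set, 7 of them clustered and 1 of the variant H2afj. Within that set 3 were called higher and 0 lower, with means of 0.01 to 0.41. The Hist1h2ao probe shares 34 genomic bases with that of Hist1h2an, fewer than 40, and lies outside the set. The calls of Hist1h2ao and Hist1h2an thus rest partly on the same sequence. Hist1h2an, with 4 differences from Hist1h2ak over the 54 bases printed earlier, had a mean of 0.32, and Hist1h2ak had 0.18. Hist2h2aa2, with 5 differences, had 0.10.

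H2B, the partner of H2A in the nucleosome core, held the largest rise, in a probe placed here by its gene name. Its 7 tested probes were all above 0 on all 3 arrays, 5 were called higher, and the median was 0.23. The Hist2h2bb probe at chr3:96082754-96082813 had log2 ratios of 1.03, 1.16 and 0.82, with a mean of 1.00 ± 0.18 (SD, n = 3), 2.01-fold, and a limma adjusted p of 0.0127. Net signals were 412.5, 453.5 and 498 in older-mother pools and 487, 466.5 and 740 in young-mother pools. At the same threshold, this call was kept under all 16 alternative settings in which it was refitted, and under median centring the log2 ratio was 0.54.

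The other Hist2h2bb probe, at chr3:96074056-96074115, carries the stem-loop and had 0.35, 0.21 and 0.14, with a mean of 0.23 ± 0.11 and a limma adjusted p of 0.0497, which lies at the threshold. The probes lie 8638 bases apart under the same gene name, and the distant one, which holds AATAAA, is the one with the doubling. AATAAA is in 12.6% of all probes. The near probe was matched to the current symbol H2bc18 by accession and the distant one by synonym only. Whether the distant probe reads an H2B mRNA, or whether its AATAAA ends one, was not tested. The near probe's call was lost without any single array, with limma adjusted p of 0.0989, 0.163 and 0.0822 without arrays 1, 2 and 3.

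Hist1h2ba (H2bc1), the H2B known from the testis, had log2 ratios of 0.38, 0.53 and 0.88, with a mean of 0.60 ± 0.26 and a limma adjusted p of 0.0233. It was higher on every array, most on array 3, with net signals of 787.5, 1010.5 and 1179 in older-mother pools and 1617, 1795.5 and 1760.5 in young-mother pools. Its neighbour Hist1h2aa, the H2A also known from the testis, had 0.19, 0.15 and 0.02 and was not called. Hist1h2bc rose by 0.22 ± 0.04 and Hist1h2be by 0.27 ± 0.13. The call of Hist1h2ba was lost without array 3, at a limma adjusted p of 0.0527. Those of Hist1h2bc and Hist1h2be were lost without any single array, at limma adjusted p of 0.0599 to 0.184. The 2 uncalled H2B probes, Hist1h2bm and Hist2h2be, had means of 0.13 and 0.12. Under median centring Hist1h2bc and Hist1h2be turned negative and Hist1h2ba had 0.04.

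H3, whose tail carries many of the known histone marks, was called higher on chromosome 3 only. The 2 H3 probes of chromosome 3 were called higher and the 4 tested H3 probes of chromosome 13 were not called. Hist2h3c2 had 0.38, 0.50 and 0.46, with a mean of 0.45 ± 0.06 and a limma adjusted p of 0.0146. Hist2h3b had 0.25, 0.34 and 0.25, with a mean of 0.28 ± 0.05 and a limma adjusted p of 0.0242. Both were higher in every older-mother pool, though each turned slightly negative under median centring, at -0.08 and -0.09, where the median of all probes was -0.33. Without array 3 their limma adjusted p was 0.0527 and 0.0693, and without array 2 that of Hist2h3b was 0.129. The 4 probes of chromosome 13 had means of -0.03 to 0.11 and limma adjusted p of 0.197 to 0.908. Whether the H3 genes of the 2 chromosomes differ was not tested.

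Linker histone H1 of the clusters gave no call. Its 5 tested probes had means of -0.11 to 0.15. Hist1h1c (H1f2), a main linker histone of somatic cells, had -0.23, 0.05 and 0.41, with a mean of 0.08 ± 0.32 and a limma adjusted p of 0.659. Its direction differed between arrays, and so did that of Hist1h1e, which had -0.40, -0.21 and 0.27. In both genes the net signal of the young-mother pools was lower on array 3 than on array 1, at 1465 against 1878.5 for Hist1h1c and 877 against 1104.5 for Hist1h1e. That of the older-mother pools was higher on array 3, at 704 against 587.5 for Hist1h1c and 390 against 301.5 for Hist1h1e.

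H4, the partner of H3 in the nucleosome core, went the other way. Of 13 tested H4 probes, 8 were called lower, 2 were called higher and 3 were not called, with a median log2 ratio of -0.62. The 8 lower probes belong to Hist1h4c, Hist1h4d, Hist1h4j and Hist1h4k on chromosome 13, Hist2h4 on chromosome 3 and Hist4h4 on chromosome 6. For the brightest, Hist1h4d at chr13:23673749-23673808, net signals were 10896, 7335 and 5260 in older-mother pools 1 to 3 and 39191.5, 41257 and 40361 in young-mother pools 1 to 3. The young-mother pools were nearly level and the older-mother pools were not, array 3 having the lowest signal. The log2 ratios were -0.26, -0.97 and -1.31, with a mean of -0.85 ± 0.54 (SD, n = 3), which is 1.80-fold lower, and a limma adjusted p of 0.0402.

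The same order of arrays appeared in 7 of the 8 lower probes. Hist4h4, on another chromosome (chr6:136752681-136752740), had -0.28, -0.87 and -1.17, with a mean of -0.77 ± 0.46. Hist2h4 (chr3:96066951-96067010) had -0.31, -0.79 and -1.09, with a mean of -0.73 ± 0.39. The second Hist1h4d probe had a mean of -0.76 ± 0.47, the Hist1h4k probes had means of -0.68 ± 0.43 and -0.66 ± 0.37, and Hist1h4j had -0.62 ± 0.35. Hist1h4c was the exception, with -0.15, -0.41 and -0.31 and a mean of -0.29 ± 0.13. Limma adjusted p for the 8 probes ran between 0.0305 for Hist2h4 and 0.0418 for Hist1h4k at chr13:21842063-21842122. All 8 stayed negative under median centring and below the median of all probes there.

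Within each channel, the change between arrays was in the older-mother pools. Array 3 over array 1, the net signal of the 8 lower H4 probes had ratios of 0.483 to 0.803 in Cy3 (older mothers) and 0.956 to 1.03 in Cy5 (young mothers). The median ratio of all tested probes was 1.05 in Cy3 and 1.09 in Cy5. Leaving Hist1h4c aside, the Cy3 ratio was 0.483 to 0.549 in the other 7. The 5 other H4 probes, of Hist1h4h, Hist1h4i and Hist1h4m, had Cy3 ratios of 0.911 to 1.42. Pool 1 of the older mothers thus had about double the H4 signal of pool 3 in those 7 probes, on a scale where the median probe was nearly level. Without array 1 all 8 were called, with limma adjusted p of 0.0114 to 0.0259. Without array 2 none was, at 0.0549 to 0.172, and without array 3 none was, at 0.0629 to 0.112, though every log2 ratio stayed negative. On Agilent's processed signals 0 of the 8 were called.

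**Figure D2:**
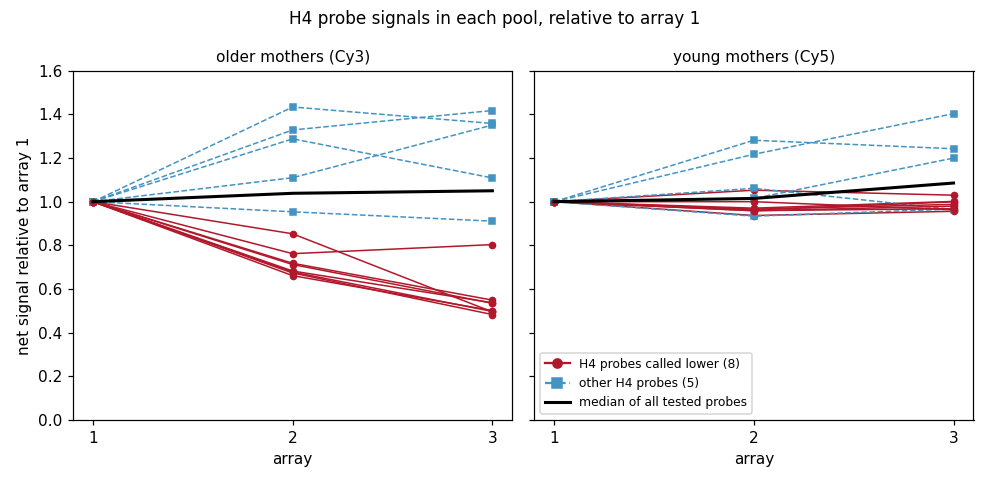
Net signal relative to array 1 (vertical axis) on arrays 1 to 3 (horizontal axis) for the 13 tested H4 probes, with older-mother pools (Cy3) on the left and young-mother pools (Cy5) on the right. In red, the 8 probes called lower fall to ratios of 0.483 to 0.803 on array 3 in the older-mother pools and stay at 0.956 to 1.03 in the young-mother pools; the black line is the median of all tested probes and blue marks the other 5 H4 probes.

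Probes of Hist1h4c, Hist1h4d, Hist1h4j and Hist1h4k overlap over the stretch printed earlier and form 1 set of 4 by the rule used for H2A. Over the 40 bases printed, they differ from Hist1h4k at 2 bases in Hist1h4j, 4 in Hist1h4d and 6 in Hist1h4c. Over all 60 bases, the Hist1h4c and Hist1h4k probes differ at 8. Mean log2 ratios in the set were -0.66 for Hist1h4k, -0.62 for Hist1h4j, -0.76 for Hist1h4d and -0.29 for Hist1h4c. The other Hist1h4d probe, at chr13:23673749-23673808, shares a run of 20 identical bases with the Hist1h4k probe at chr13:21842063-21842122. The longest run of identical bases that the Hist4h4 probe shared with any other H4 probe was 8, and for Hist2h4 it was 10. For Hist1h4i at chr13:22132591-22132650, called higher, it was 6. Whether probes read the mRNAs of other H4 genes was not tested.

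Hist1h4i (H4c9) rose where the other called H4 genes fell. Its probe at chr13:22132591-22132650 had 0.48, 0.55 and 0.70, with a mean of 0.58 ± 0.11 and a limma adjusted p of 0.0140. The probe at chr13:22133139-22133198 had 0.22, 0.32 and 0.30, with a mean of 0.28 ± 0.06 and a limma adjusted p of 0.0250. Both were higher in each older-mother pool and stayed positive under median centring, at 0.11 and 0.19. Without array 3 their limma adjusted p was 0.0522 and 0.0793, and without array 2 that of the second was 0.127. The third probe, at chr13:22132679-22132738, had 0.12, 0.10 and 0.08 and was not called, with a limma adjusted p of 0.171.

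Among the variants, the linker histone H1fx (H1f10) had the clearest change. It had log2 ratios of -0.64, -0.61 and -0.71, with a mean of -0.66 ± 0.05 (SD, n = 3), 1.58-fold lower, and a limma adjusted p of 0.0127. Net signals were 131, 123 and 107 in older-mother pools and 611, 549 and 556 in young-mother pools. The 3 arrays lay close together, and the call was kept under all 16 alternative settings at the same threshold. H1f0, the linker histone known from cells that have stopped dividing, had -0.05, -0.09 and -0.08 and was not called, with a limma adjusted p of 0.289. H1fnt, known from spermatids, was not well above background in any older-mother pool and was above it in all 3 young-mother pools. Its log2 ratios were -0.06, -0.55 and -0.03, so the mean rests mostly on array 2. The at-least fold for young over older was 1.16, no different from its measured ratio of 1.16, and so sets no lower limit. H1fnt was not called, with a limma adjusted p of 0.209, and turned positive under median centring, at 0.40.

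Variant H2A gave 1 rise and 1 fall in 13 tested probes, with a median log2 ratio of 0.00. H2afx, the variant that is phosphorylated at DNA breaks, had 0.15, 0.22 and 0.38, with a mean of 0.25 ± 0.12, 1.19-fold, and a limma adjusted p of 0.0464. It was higher on all 3 arrays, its call was lost without array 2 or array 3, at limma adjusted p of 0.143 and 0.131, and it turned negative under median centring, at -0.34. H2afy encodes macroH2A1, a variant with a large extra domain known from the inactive X chromosome. Its probe at chr13:56189613-56189672 had -0.43, -0.40 and -0.31, with a mean of -0.38 ± 0.06 and a limma adjusted p of 0.0174. The other H2afy probes had means of -0.11 and -0.07 and were not called, so the fall was seen by 1 of 3 probes. That call was lost without array 2 or array 3, at limma adjusted p of 0.0596 and 0.0527.

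H2A.Z, the variant found next to the start sites of active genes, is encoded by H2afz and H2afv. The brightest H2afz probe, at chr3:137529723-137529782, had 0.10, 0.01 and -0.11, a mean of 0.00 ± 0.10. The second, at chr3:137529827-137529886, had -0.09, -0.23 and -0.35, a mean of -0.22 ± 0.13 with a limma adjusted p of 0.0653. Both were lowest on array 3 and neither was called. The H2afv probes had means of 0.03 ± 0.09 and -0.03 ± 0.03. H2afy2, which encodes macroH2A2, had -0.05 ± 0.01. The H2afj probes had means of 0.01 ± 0.04 and 0.21 ± 0.13, and the brighter of them is the one that overlaps the H2A set.

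H3.3, the H3 variant that neurons take up throughout life, is encoded by H3f3a and H3f3b. The H3f3a probe at chr1:182732757-182732816 had -0.18, -0.28 and -0.27, with a mean of -0.25 ± 0.06, 1.19-fold lower, and a limma adjusted p of 0.0309. The second H3f3a probe, at chr1:182733208-182733267, had 0.06, 0.06 and 0.08 and was not called, with a limma adjusted p of 0.323. The probes of this gene therefore differed in sign on all 3 arrays. The 3 H3f3b probes had means of -0.08 ± 0.14, -0.09 ± 0.04 and 0.07 ± 0.04, and none was called. The call of the first H3f3a probe was lost without array 2 or array 3, at limma adjusted p of 0.162 and 0.0960.

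**Figure D3:**
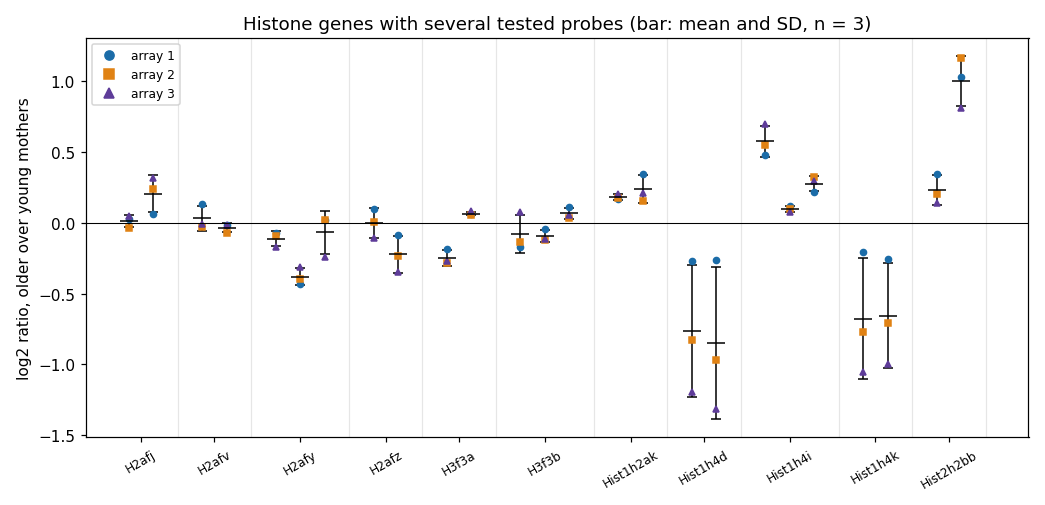
Log2 ratio of older over young mothers (vertical axis) for genes with more than 1 tested probe (horizontal axis, probes of a gene side by side in genomic order). Symbols are the 3 arrays and bars the mean and SD (n = 3); probes of Hist1h4d and of Hist1h4k lie together, at means of -0.85 to -0.66, and probes of Hist2h2bb and H3f3a lie apart.

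By chromosome, both large clusters held mostly positive ratios outside H4. Clustered probes on chromosome 13 numbered 33 tested, with 11 called higher, 6 called lower and a median of 0.13. On chromosome 3 there were 8 tested, with 4 called higher, 1 called lower and a median of 0.18. Without H4, chromosome 13 had 9 of 22 called higher with a median of 0.16, chromosome 3 had 4 of 7 with a median of 0.23, and neither had a lower call. The lone tested probe of chromosome 11, Hist3h2a, was called higher and that of chromosome 6, Hist4h4, was called lower. The H4 probes called lower lay on chromosomes 13, 3 and 6. The tested variant probes lie singly or a few together on chromosomes 1, 3, 6, 9, 10, 11, 13, 15 and X, with calls on 1, 6, 9 and 13.

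**Figure D4:**
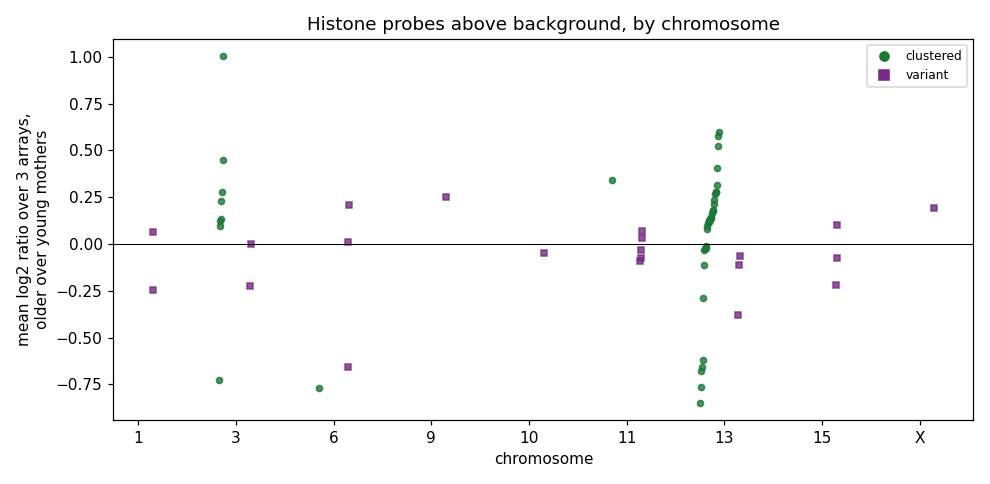
Mean log2 ratio over the 3 arrays, older over young mothers (vertical axis), of each tested histone probe by chromosome (horizontal axis), clustered probes as green circles and variant probes as purple squares. On chromosomes 13 and 3 most clustered probes lie above 0, with medians of 0.13 and 0.18, and H4 probes make up the low group.

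The stem-loop motif in capitals in the sequences printed earlier, with any base allowed where they vary and searched on the probe's own strand, was in 4 of 52 clustered probes (7.69%), in 0 of 22 variant probes and in 5 of all 39429 probes (0.0127%). Of the 4, Hist2h2bb was called higher at 0.23, Hist1h3i and Hist1h4m were not called at 0.11 and 0.14, and Hist1h3a was not above background. The poly(A) signal AATAAA was in 2 clustered probes (3.85%), 3 variant probes (13.6%) and 12.6% of all probes. The 2 clustered ones, Hist1h2ag and the distant Hist2h2bb probe, were called higher at 0.41 and 1.00. The 3 variant ones, of H2afv, H2afz and H3f3b, were not called, at 0.03, 0.00 and -0.08. ATTAAA was in 2 clustered probes (3.85%), 1 variant probe (4.55%) and 4.56% of all probes. Of the histone probes with ATTAAA, Hist1h2be was called higher at 0.27, while Hist1h4i and H2afz were not called, at 0.10 and -0.22. Whether either motif goes with the ratios was not tested. The median share of G and C was 51.7% in clustered probes, 45.0% in variant probes and 41.7% in all probes. With the trend on base composition removed, the clustered median was 0.18 and 27 of the 28 histone calls remained.

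The 10 untested probes were of Hist1h1d, Hist2h2ab, Hist1h2bb, Hist1h2bp, Hist1h2bq, Hist3h2bb-ps, Hist1h3a, Hist1h3g, H2afb1 and the second Hist2h4 probe at chr3:96067178-96067237. For these, neither channel stood well above background on every array.

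Genes that make and place histones were called in both directions, and their counts stand beside the 16.6% called over all probes. Of 24 genes for the 3′ processing of histone mRNA, 22 were tested, 1 was called higher, 1 lower and 20 not, with a median log2 ratio of 0.07. Sympk, a scaffold of the cleavage complex, rose by 0.25 ± 0.08, and Cpsf3, the nuclease that cuts histone mRNAs, fell by 0.28 on the log2 scale. Slbp itself had 0.10, -0.05 and 0.04. Of 38 histone chaperones and related factors, 35 were tested, with 2 called higher, 3 lower and a median of 0.02. Nasp, a chaperone of H3 and H4, rose by 0.21 ± 0.02. Chaf1a, the large subunit of the complex that deposits H3 and H4 at replication, had -0.38 ± 0.12, and Srcap, which exchanges H2A.Z into nucleosomes, had -0.24 ± 0.04.

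Proliferation markers, which accompany clustered histone mRNA in dividing cells, had 24 of 30 tested, 2 called higher, 3 lower and a median of -0.09. Cdc6 rose by 0.29 ± 0.11, while Mcm5 and Gmnn had -0.24 ± 0.02 and -0.34 ± 0.16. Among the marker lists of other cells, choroid plexus, leptomeningeal fibroblasts and neutrophils had medians furthest from 0. The counts stand beside the 16.6% called over all probes. Choroid plexus markers had a median of -1.08, with 0 of 12 called higher and 3 lower and 0 below background, and their medians on arrays 1 to 3 were -0.86, -2.04 and -0.41. Their summed net signal was 10120.5 to 56630.5 in older-mother pools and 191653 to 273866 in young-mother pools. Leptomeningeal fibroblast markers had 0 of 12 higher, 6 lower and a median of -0.41. Their summed net signal was 4144.5 to 7450.5 in older-mother pools and 17033.5 to 22548.5 in young-mother pools. Of 10 neutrophil markers, 7 were tested, 4 were called higher and 0 lower, with a median of 0.34, and 3 were below background. Their summed net signal was 1143.5 to 1847 in older-mother pools and 2073.5 to 2250.5 in young-mother pools. All the summed signals given here are raw, and Cy5 read brighter than Cy3 over the whole array. They show the spread of pools within a channel and do not compare the groups. Red cell markers had 1 of 7 tested called lower and a median of -0.12, and microglia markers had 1 of 10 called higher and 1 lower, with a median of 0.03. The part of these cells in the histone values was not tested.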

How the data were processed

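The histone genes and the gene lists were chosen with earlier results of these data known. Signals were read per the file headers with Agilent Feature Extraction 10.10.1.1, and the spot and local background signals are raw intensity values. Processed signals are intensity values corrected for background and dye by that program, per the file headers. Flags for spots well above background, saturated or outlying are values of another kind (other), 0 or 1, per the file headers. The authors' deposited table gives, per spot, the log2 of Cy3 over Cy5. It does not state its steps, and normexp with offset 50 and loess on the median signals, computed here, gave the same values within 5.0e-10.

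Deposited log2 ratios were averaged over the spots of a probe and tested against 0 with limma 3.58.1 in R 4.3.3 (intercept, eBayes, two-sided, 2 residual plus 3.61 prior degrees of freedom), adjusted by Benjamini-Hochberg over 27629 probes. Pools 1 to 3 of the groups are paired by sharing an array. The net signal is the spot median minus the local background median. The offset pulls ratios of dim probes towards 0, and the number of arrays limits the precision. On simulated ratios for this comparison with 27629 probes, 91 of 100 probes changed by 0.5 and 100 of 100 changed by 1 were called, and 11 of 27429 unchanged ones. The simulated noise was independent between spots, with no dye effect particular to a probe and no pool difference shared by probes. These rates therefore need not hold for the real arrays.

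Coordinates are those of the files (mm9), and exon annotation of that build was not used here. They span 60 bases for 70 of the 74 probes; for Hist1h2ag, H2afy2 and both H3f3b probes starting at 115883275 they do not. Current symbols come from RefSeq (GRCm38.p6), by accession for 66 probes and by synonym for 8. Named with values were all called probes, H3f3a, H3f3b, H2afz, H2afv, H2afy, H2afy2, H2afx, H2afj, H1f0, H1fx, H1fnt and Hist1h1c, the 3 brightest of each class, genes whose probes differ, probes with a mean of at least 0.5 in size, and up to 3 of each other list. Hist1h1a, Hist1h1b, Hist1h1e, Hist1h1t, Hist1h2aa, Hist1h2bm, Hist2h2be, Hist2h2aa2, Hist1h3c, Hist1h3d, Hist1h3f, the stem-loop probes and Slbp were named after their values were seen. An at-least fold sets a dim channel at the higher of its own signal and the lowest signal above background.

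Alternatives were mean signals, no background correction, an offset of 16, Agilent's processed signals, median centring, scaling between arrays, no filter and a stricter one, array weights, channels taken separately, a robust variance trend, removal of the trend on base composition, 1 probe per gene, other thresholds, and leaving out each array.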

Additional observations from a re-analysis of the deposited data

How the results depend on the processing

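These values rest on 3 arrays of 1 dye orientation, and dim probes have ratios shrunk towards 0. Counts are given as clustered higher, clustered lower, variant higher and variant lower, the reported ones being 16, 8, 1 and 3, beside medians of 0.13 (clustered) and -0.05 (variant). Leaving out each array in turn gave ranges of 1 to 11, 0 to 8, 0 to 2 and 1 to 4, with medians of 0.12 to 0.17 and -0.05 to -0.04. Of the 28 histone calls 23, 7 and 2 were kept without arrays 1, 2 and 3, the 2 kept without array 3 being Hist2h2bb at chr3:96082754-96082813 and H1fx. Median centring, where the median of all probes is -0.33, gave 8, 25, 3 and 17, with medians of -0.27 and -0.57. An offset of 16 gave 2 clustered lower and 0 variant higher, with medians of 0.16 and -0.026. Agilent's processed signals gave 0 clustered lower and 0 variant higher, with medians of 0.16 and -0.012. The variant median was -0.027 on mean signals and -0.022 without background correction. Without a filter no variant probe was called higher (0). A variance trend gave 3 clustered lower. Array weights gave 25 clustered higher, 3 variant higher and 5 variant lower. Removing the trend on base composition gave medians of 0.18 and -0.029. An adjusted p under 0.01 gave 0 in all counts and one under 0.1 gave 3 variant higher. Treating the channels separately, with no replicate block for the pairing on an array, gave 3 clustered lower and kept 21 of the 28 calls. The cause of these differences was not tested.

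Under median centring these turned negative: Hist1h1c (-0.43), Hist1h2ab (-0.22), Hist1h2af (-0.55), Hist1h2ag (-0.27), Hist1h2ah (-0.57), Hist1h2ak (-0.53 and -0.22), Hist1h2an (-0.34), Hist1h2ao (-0.12), Hist3h2a (-0.26), Hist1h2bc (-0.47), Hist1h2be (-0.17), the near Hist2h2bb probe (-0.026), Hist2h3b (-0.085), Hist2h3c2 (-0.079), the third Hist1h4i probe (-0.32), H2afj (-0.72 and -0.20), H2afv (-0.36), H2afx (-0.34) and the second H3f3a probe (-0.55). H1f0 (0.084) and H1fnt (0.40) turned positive there. Other sign changes were near 0: H2afy2 on processed signals (0.0062), H2afz with scaling (0.0022), weights (0.0031) and base composition (0.012), and H2afj (-0.015) and H2afv (-0.0069) with weights. Leaving out each array gave -0.086 to 0.23 for Hist1h1c, -0.0047 to 0.036 for the first H2afj probe, -0.019 to 0.065 for the first H2afv probe, -0.11 to 0.020 for H2afy at chr13:56205682-56205741 and -0.050 to 0.054 for the first H2afz probe.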
